A study of Homo sapiens with 12 samples.

Results

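The double knockdown of NELFA and YAP was compared with the non-targeting control across all expressed genes. Its members were the 3 siNELFA+siYAP libraries and the 3 siControl libraries, 6 of the 12 libraries of the series, chosen by their sample titles, and the comparison was repeated against siControl replicates 2 and 3 only. The cells were MDA-MB-231, a breast cancer line that lacks hormone receptors and HER2 amplification and has mesenchymal features. In the double knockdown, cells received the siRNA pools against NELFA and YAP1 together, and in siControl they received a non-targeting pool. The protocol in the labels gives 50 to 100 nM siRNA and extraction at 48 and 72 hours without assigning libraries to a time, and the study's methods give 72 hours for total RNA. Those methods do not say whether the total siRNA dose was equal in both groups. An effect of dose therefore cannot be told apart from the knockdowns. Each siRNA was a pool and no second pool or rescue was sequenced, so effects of a pool on other messages cannot be told apart from effects of the target. The study's methods speak of independent biological replicates, but the columns of the double knockdown all bear the number 1 followed by an index, and the labels do not say whether separate cultures were transfected. If they were not, the spread on that side is only technical. The test pools the spread of both groups, so its p-values could then be too small. The coefficient of variation beyond counting noise was 0.0578 in the double knockdown and 0.113 between siControl replicates 2 and 3. Over all 3 siControl libraries it was 0.323.

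NELFA is a subunit of the negative elongation factor, which holds RNA polymerase II in a paused state shortly after initiation until the kinase P-TEFb releases it. YAP is a transcriptional co-activator of the Hippo pathway that reaches DNA through TEAD factors, and ANKRD1, CTGF and CYR61 are among its best known target genes. Immediate early and inflammatory genes are classical examples of genes with paused polymerase, while YAP and TEAD act on many genes of proliferation.

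The libraries held 9608145 to 18803104 counts over 58051 listed genes. One control library stood apart. Over 12971 genes averaging at least 50 counts, siControl replicate 1 lay 0.798 and 0.878 from siControl replicates 2 and 3 (root mean square difference in log2 CPM, reads scaled by library size with TMM factors), while those lay 0.291 from each other. The double knockdown libraries lay 0.213 to 0.239 from each other, 0.382 to 0.491 from siControl replicates 2 and 3 and 0.869 to 0.882 from siControl replicate 1. The long non-coding RNA MALAT1 took 4.41% of the counts in siControl replicate 1 and 0.799% to 1.02% in the other 5 libraries. The defining markers of the line were present, with VIM at 1187 to 1748 CPM. The epithelial cadherin CDH1 was at 24.9 CPM in siControl replicate 1 and at 0.207 to 0.936 in the other 5, and the collagen gene COL1A2 was at 41.1 CPM there and at 0.716 to 2.81 elsewhere. Among leukocyte markers, PTPRC and CD3E had no count in the 6 libraries. CD14 was at 11.3, 2.42 and 2.38 CPM in siControl and at 4.47, 4.08 and 6.62 CPM in the double knockdown, with a log2 fold change of 1.08 (adjusted p = 0.0113) against siControl replicates 2 and 3 and -0.05 (adjusted p = 0.977) against all 3. Replicate 1 of siNELFA and of siYAP stood with siControl replicate 1. Because none of the double knockdown libraries lay there, the comparison was made with and without siControl replicate 1. In bulk RNA, fewer cells of a type and less RNA per cell cannot be told apart.

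**Figure D1:**
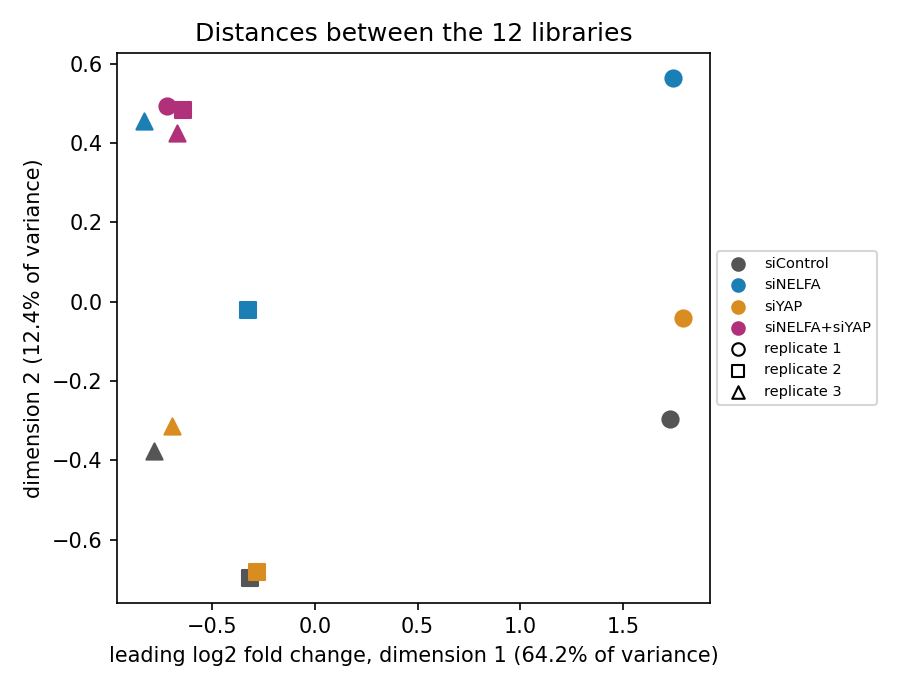
Multidimensional scaling of the 12 libraries on log2 CPM, with the leading log2 fold change on both axes (64.2% and 12.4% of the variance), colours for the 4 groups and symbols for replicates 1, 2 and 3. The replicate 1 libraries of siControl, siNELFA and siYAP lie at the right, and the 3 double knockdown libraries lie together at the left, near siNELFA replicate 3.

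Promoter stretches of 8 genes are shown first, because the leading gene groups below carry well known motifs there. They are the 250 bases before the RefSeq start (GRCh38.p14), 5′ to 3′ on the gene's strand, and a match is only a description of the letters. Capitals in CCL20 (chr2:227813592-227813841, plus strand), CXCL5 (chr4:73998678-73998927, minus strand) and SDC4 (chr20:45348425-45348674, minus strand) mark the kappaB motif, the binding motif of NF-kB. Capitals in ANKRD1 (chr10:90921088-90921337, minus strand) and CTGF (CCN2 in RefSeq, chr6:131951373-131951622, minus strand) mark GGAATG, the core of the TEAD motif.
CCL20: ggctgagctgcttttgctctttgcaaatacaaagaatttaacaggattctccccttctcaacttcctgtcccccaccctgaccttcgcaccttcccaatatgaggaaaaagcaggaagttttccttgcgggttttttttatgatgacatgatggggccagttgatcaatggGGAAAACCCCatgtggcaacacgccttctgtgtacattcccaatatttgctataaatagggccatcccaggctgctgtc
CXCL5: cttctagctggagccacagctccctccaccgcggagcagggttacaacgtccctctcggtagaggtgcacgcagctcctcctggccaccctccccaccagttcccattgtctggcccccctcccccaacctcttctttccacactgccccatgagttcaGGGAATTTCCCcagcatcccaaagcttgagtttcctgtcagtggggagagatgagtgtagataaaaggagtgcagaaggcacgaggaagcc
SDC4: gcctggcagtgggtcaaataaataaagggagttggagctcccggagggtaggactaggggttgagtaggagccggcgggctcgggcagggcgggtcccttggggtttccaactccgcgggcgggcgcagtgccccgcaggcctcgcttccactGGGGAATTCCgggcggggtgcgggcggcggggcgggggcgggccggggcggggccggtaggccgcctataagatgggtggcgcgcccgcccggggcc
ANKRD1: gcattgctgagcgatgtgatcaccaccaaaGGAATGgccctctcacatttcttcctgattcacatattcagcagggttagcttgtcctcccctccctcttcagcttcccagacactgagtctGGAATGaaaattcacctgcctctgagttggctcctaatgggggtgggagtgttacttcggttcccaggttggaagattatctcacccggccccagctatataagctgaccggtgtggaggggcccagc
CTGF: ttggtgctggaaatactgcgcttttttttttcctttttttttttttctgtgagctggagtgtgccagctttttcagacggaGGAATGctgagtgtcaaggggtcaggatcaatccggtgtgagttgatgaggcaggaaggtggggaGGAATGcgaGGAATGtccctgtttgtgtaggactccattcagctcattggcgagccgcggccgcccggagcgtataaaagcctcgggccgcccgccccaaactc

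Capitals in KIF11 (chr10:92592880-92593129, plus strand) and CDC20 (chr1:43358731-43358980, plus strand) mark TTTGAA, the cell cycle homology region (CHR), and CCAAT, the pair of motifs typical of late cell cycle genes. Capitals in GINS2 (chr16:85688955-85689204, minus strand) mark TTTNNCGC, an E2F-type motif.
KIF11: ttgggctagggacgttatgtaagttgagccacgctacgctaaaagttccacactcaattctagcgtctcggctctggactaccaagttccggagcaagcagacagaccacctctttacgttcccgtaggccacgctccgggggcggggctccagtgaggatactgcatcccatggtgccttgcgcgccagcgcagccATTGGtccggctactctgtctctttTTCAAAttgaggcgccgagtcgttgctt
CDC20: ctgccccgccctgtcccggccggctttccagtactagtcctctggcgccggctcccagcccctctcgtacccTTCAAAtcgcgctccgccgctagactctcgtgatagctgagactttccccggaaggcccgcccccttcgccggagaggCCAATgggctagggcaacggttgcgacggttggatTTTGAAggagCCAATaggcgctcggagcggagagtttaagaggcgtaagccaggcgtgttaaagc
GINS2: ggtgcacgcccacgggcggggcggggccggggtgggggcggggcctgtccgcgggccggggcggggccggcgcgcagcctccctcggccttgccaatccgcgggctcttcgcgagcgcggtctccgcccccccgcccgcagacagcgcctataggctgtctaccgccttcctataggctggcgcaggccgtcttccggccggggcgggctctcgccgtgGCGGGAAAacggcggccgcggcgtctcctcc

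All motifs were searched on both strands, so capitals may show the reverse complement. The marked motifs of different kinds share no letters, the kappaB matches in CXCL5 overlap each other, and other motifs in these stretches are not marked. Of 35116 promoters of the same length, 13.3% held TTTGAA, 32.0% CCAAT, 5.92% TTTNNCGC, 11.9% GGAATG and 12.3% the kappaB motif. Counted per gene, TTTGAA was present in 25 of 48 mitotic spindle genes with a promoter entry, against 16.1% of all genes in the promoter table, and CCAAT in 37 of 48, against 37.0%. TTTNNCGC was present in 19 of 44 replication genes, against 7.15%, and the kappaB motif in 14 of 22 genes of the NF-kB list, against 14.5%. The motifs are those well known for these gene classes, so the shares describe the lists and test nothing. Among tested protein-coding genes the shares were 12.3% for TTTGAA, 41.7% for CCAAT, 11.3% for TTTNNCGC and 18.6% for the kappaB motif, but only 79.4% of those genes had an entry, under the 80% required, so this check is void. For the YAP targets and the chemokines under 80% of the members had a promoter entry, so no share is given.

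Both knockdowns were visible in every library. NELFA (ENSG00000185049, chr4:1982717-2041903, minus strand, GRCh38) was at 25.3, 27.5 and 27.9 CPM in siControl replicates 1 to 3 and at 8.20, 6.73 and 6.35 CPM in the double knockdown. All 3 double knockdown libraries were below all 3 controls. Its mean of 7.09 CPM ± 0.977 (SD, n = 3) was 26.4% of the control mean, and the log2 fold change was -1.94 (SE 0.16, adjusted p = 0.0199). The direction held in each fit that left out 1 library, but the adjusted p was 0.133 without siControl replicate 2 and 0.215 to 0.324 without any one double knockdown library. YAP1 (ENSG00000137693, chr11:102110447-102233424, plus strand) was at 302, 269 and 247 CPM in siControl and at 44.1, 40.7 and 40.1 CPM in the double knockdown. The groups were again apart, with 15.3% of the control level left and a log2 fold change of -2.72 (SE 0.13, adjusted p = 0.00118).

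Against all 3 controls, edgeR's quasi-likelihood test passed 75 of 17533 genes (0.428%) at an adjusted p under 0.05. Of these, 54 (0.308%) were lower and 21 (0.12%) higher in the double knockdown, and 3241 genes had an unadjusted p under 0.05. In all 75 the groups did not overlap, which held for 29.8% of all tested genes. The count rested on single libraries: it was 2 without siControl replicate 2, 0 to 2 without any one double knockdown library, 126 without siControl replicate 3 and 4531 without siControl replicate 1. The 2 genes that kept the call without siControl replicate 2 or without double knockdown replicate 2 or 3 were YAP1 and ALDH9A1, and both had an adjusted p of 0.0514 without double knockdown replicate 1. Against siControl replicates 2 and 3, 4531 of 18587 genes (24.4%) passed, 2402 (12.9%) lower and 2129 (11.5%) higher. Against the same 2 controls, limma on log2(TPM + 1) passed 9 genes, 8 lower and 1 higher. Over genes averaging at least 1 TPM, an alternative added after seeing the data, it passed 791 as lower and 279 as higher. By edgeR, 7.53% of the tested genes passed as lower and also lay below siControl replicate 1, and 7.69% passed as higher and also lay above it. All 75 genes of the first comparison passed in the second in the same direction, and the comparisons share 5 libraries.

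**Figure D2:**
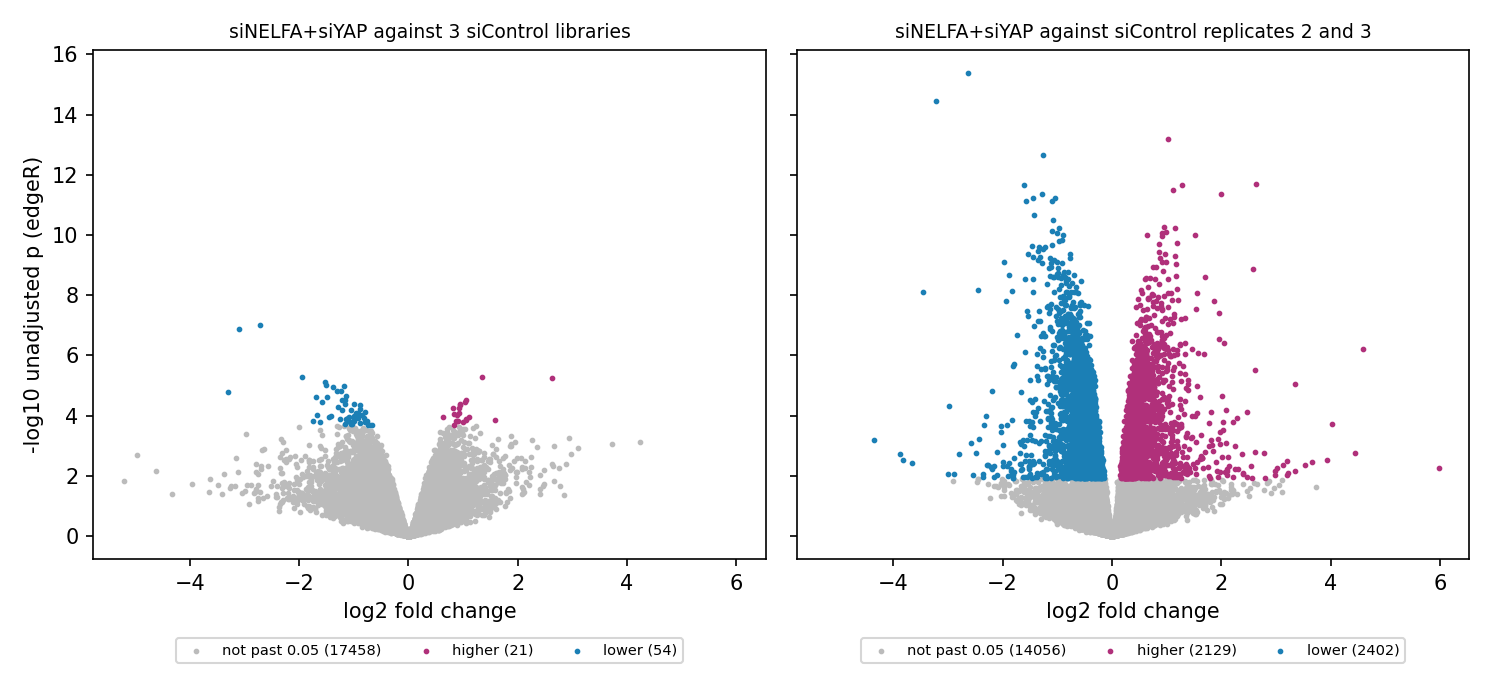
Unadjusted p (-log10) against log2 fold change for each tested gene, with all 3 siControl libraries at the left and siControl replicates 2 and 3 at the right, and the genes past an adjusted p of 0.05 in colour. The left panel holds 21 higher and 54 lower genes and the right panel 2129 higher and 2402 lower genes.

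Among protein-coding genes past the adjusted threshold against 3 controls with a mean of at least 50 counts, the largest fall was that of ALDH9A1 (chr1:165662216-165698562, minus strand), an aldehyde dehydrogenase that acts in carnitine synthesis. It was at 68.3, 86.7 and 90.6 CPM in siControl and at 9.19, 10.3 and 9.30 CPM in the double knockdown. The groups were far apart, and the log2 fold change was -3.10 (SE 0.16, adjusted p = 0.00118) against 3 controls. In the single knockdowns ALDH9A1 was at 9.25 to 12.7 CPM with siNELFA and at 70.7 to 93.3 CPM with siYAP, so its low level was shared with the siNELFA libraries. Whether the NELFA siRNA pool acts on this message directly was not tested. A Y_RNA gene inside ALDH9A1 (chr1:165662585-165662687) had -3.31 and lies on the same strand, so reads of the pair cannot be told apart. The other leading falls against 3 controls were PLAC8 (-1.75), PRPS2 (-1.69), a phosphoribosyl pyrophosphate synthetase, C4orf46 (-1.68), SLC44A2 (-1.62), a choline transporter-like protein, PM20D2 (-1.58) and MTMR4 (-1.52), a lipid phosphatase of endosomes.

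The largest rise among the genes past the same threshold was that of CCL20, the ligand of the chemokine receptor CCR6. It was at 3.47, 3.08 and 4.76 CPM in siControl and at 25.0, 25.6 and 20.2 CPM in the double knockdown, with a log2 fold change of 2.62 (SE 0.22, adjusted p = 0.0199). The groups were apart, and the single knockdowns held 7.21 to 17.7 CPM with siNELFA and 1.73 to 5.43 CPM with siYAP. SDC4, a heparan sulfate proteoglycan of focal adhesions, was at 448, 480 and 568 CPM in siControl and at 1294, 1288 and 1272 CPM in the double knockdown (log2 fold change 1.35, SE 0.11, adjusted p = 0.0199). Every double knockdown library exceeded the highest control by more than the whole spread of the controls. Further rises against 3 controls were UNC13A (1.58), LTBP3 (1.11), which binds latent TGF-beta, APCDD1L (1.06), ZC3H12A (1.06), an RNase that limits inflammatory messages, CD82 (1.05), LAMA5 (1.03), a laminin chain, MKNK2 (0.99) and TIMP1 (0.94), an inhibitor of matrix metalloproteinases. The ferritin chains also rose, FTH1 by 0.90 (SE 0.13, adjusted p = 0.0431) and FTL by 0.64 (SE 0.08, adjusted p = 0.0423).

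The YAP targets did not move together. ANKRD1 was at 429, 335 and 343 CPM in siControl and at 167, 163 and 167 CPM in the double knockdown. The groups were apart and the log2 fold change was -1.17 (SE 0.13, adjusted p = 0.0317). CTGF, which carries 3 copies of GGAATG in the stretch shown above, was at 108, 134 and 124 CPM in siControl and at 154, 151 and 147 CPM in the double knockdown. It was slightly higher in all 3 libraries, with a log2 fold change of 0.29 (SE 0.11, adjusted p = 0.239) against 3 controls and 0.22 (SE 0.06, adjusted p = 0.0202) against replicates 2 and 3. In the single knockdowns CTGF was at 266 to 350 CPM with siNELFA and at 54.2 to 78.5 CPM with siYAP, so the double knockdown lay between them. CYR61 was at 725 to 831 CPM in siControl and at 793 to 852 CPM in the double knockdown, and the groups overlapped (log2 fold change 0.05, adjusted p = 0.82). Its single knockdown levels were 1059 to 2081 CPM with siNELFA and 479 to 728 CPM with siYAP. These single knockdown values are given as levels, and no test of the combination was made.

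Of 31 tested YAP and TEAD targets, 4 were lower (ANKRD1, DLC1, TEAD1 and ARHGAP29) and 0 higher against 3 controls, and 11 were lower and 5 higher against replicates 2 and 3, with a median log2 fold change of -0.13 beside -0.005 over all genes. The members that fell included IGFBP3 (-1.94 in the second comparison and -3.16 with siControl replicate 1, where it was at 120.8 CPM against 26.6 and 22.2) and DLC1 (-0.87), a RhoGAP, and those that rose included NUAK2 (0.85) and SGK1 (0.80), both kinases. TEAD1, the DNA-binding partner, was at 354, 407 and 365 CPM in siControl and at 203, 201 and 211 CPM in the double knockdown, a log2 fold change of -0.88 (SE 0.10, adjusted p = 0.0319) with no overlap. WWTR1, which encodes the YAP paralogue TAZ, had a log2 fold change of 0.11 (adjusted p = 0.591), and TEAD3 and TEAD4 had 0.31 and -0.61 against replicates 2 and 3. Among the other NELF subunits, NELFCD had -0.02 and NELFE -0.02 against 3 controls, and NELFB had -0.26 (adjusted p = 0.0216) against replicates 2 and 3 but overlapped siControl replicate 1, where it was at 35.1 CPM. Of 28 P-TEFb, DSIF and 7SK genes, 3 (10.7%) were higher and 2 (7.14%) lower against replicates 2 and 3, with a median of 0.02. Those shares are not above the 11.5% higher and 12.9% lower among all genes. The largest fall on the list was MLLT1 (-1.32), a subunit of the super elongation complex. By edgeR 0 of 27 passed against 3 controls, where 3 had an unadjusted p under 0.05, beside 3241 of 17533 over all genes.

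Genes of mitosis formed the most uniform group. Of 53 spindle and chromosome segregation genes, all 53 were lower against siControl replicates 2 and 3, 37 of them also below siControl replicate 1, and the median was -0.65. Among all genes tested in that comparison 12.9% were lower, and 7.53% were lower and also below siControl replicate 1. Against 3 controls 2 passed (KIF11 and ANLN), where 0.308% of all genes passed as lower, and the median was -0.59. There 41 of 53 had an unadjusted p under 0.05, beside 3241 of 17533 over all genes. KIF11, the kinesin that separates the spindle poles, was at 120.5, 156 and 132 CPM in siControl and at 64.8, 64.2 and 69.2 CPM in the double knockdown, a log2 fold change of -1.06 (SE 0.13, adjusted p = 0.0372) with no overlap. CDC20, the activator of the anaphase-promoting complex, was at 39.9, 113 and 112 CPM in siControl and at 42.6, 41.7 and 40.5 CPM in the double knockdown. Here the double knockdown was low beside siControl replicates 2 and 3 and level with replicate 1, so the log2 fold change was -1.44 (SE 0.07, adjusted p = 9.2e-09) against the former and -1.09 (SE 0.36, adjusted p = 0.181) against all 3. NCAPH, a condensin subunit, and SPC24, a kinetochore protein, had -1.18 and -1.12 against replicates 2 and 3, and SPC24 overlapped siControl replicate 1.

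Replication genes passed the test only against siControl replicates 2 and 3, and by edgeR 0 of 51 passed against 3 controls. With 3 controls 10 of 51 had an unadjusted p under 0.05, near the share over all genes (3241 of 17533). Against siControl replicates 2 and 3, 47 of 51 passed as lower and 0 as higher, with a median of -0.65. Only 7 also lay below siControl replicate 1. Among all genes tested in that comparison 12.9% passed as lower and 11.5% as higher, and 7.53% passed as lower and also lay below siControl replicate 1. GINS2, a subunit of the replicative helicase, was at 9.31, 30.8 and 25.4 CPM in siControl and at 9.85, 8.02 and 11.02 CPM in the double knockdown, which overlapped siControl replicate 1. Replication-dependent histones had 35 of 44 lower, 5 of them below siControl replicate 1 too, and a median of -0.93, the lowest of the lists with 10 or more tested members. The mean level of the replication list was -1.13 in siControl replicate 1 and -0.63, -0.63 and -0.60 in the double knockdown, in log2 CPM relative to siControl replicates 2 and 3. For histones it was -1.64 in siControl replicate 1 and -0.86, -0.83 and -0.74 in the double knockdown. For both lists the double knockdown thus lay above siControl replicate 1 and below siControl replicates 2 and 3. The mitotic list was at -0.34 in siControl replicate 1 and at -0.66, -0.70 and -0.66 in the double knockdown, below every control. Of 37 Fanconi and homologous recombination genes, 27 were lower and 1 higher, 15 of the former also below siControl replicate 1, and FANCD2 fell by 1.13 on the log2 scale (adjusted p = 0.0292) against 3 controls.

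**Figure D3:**
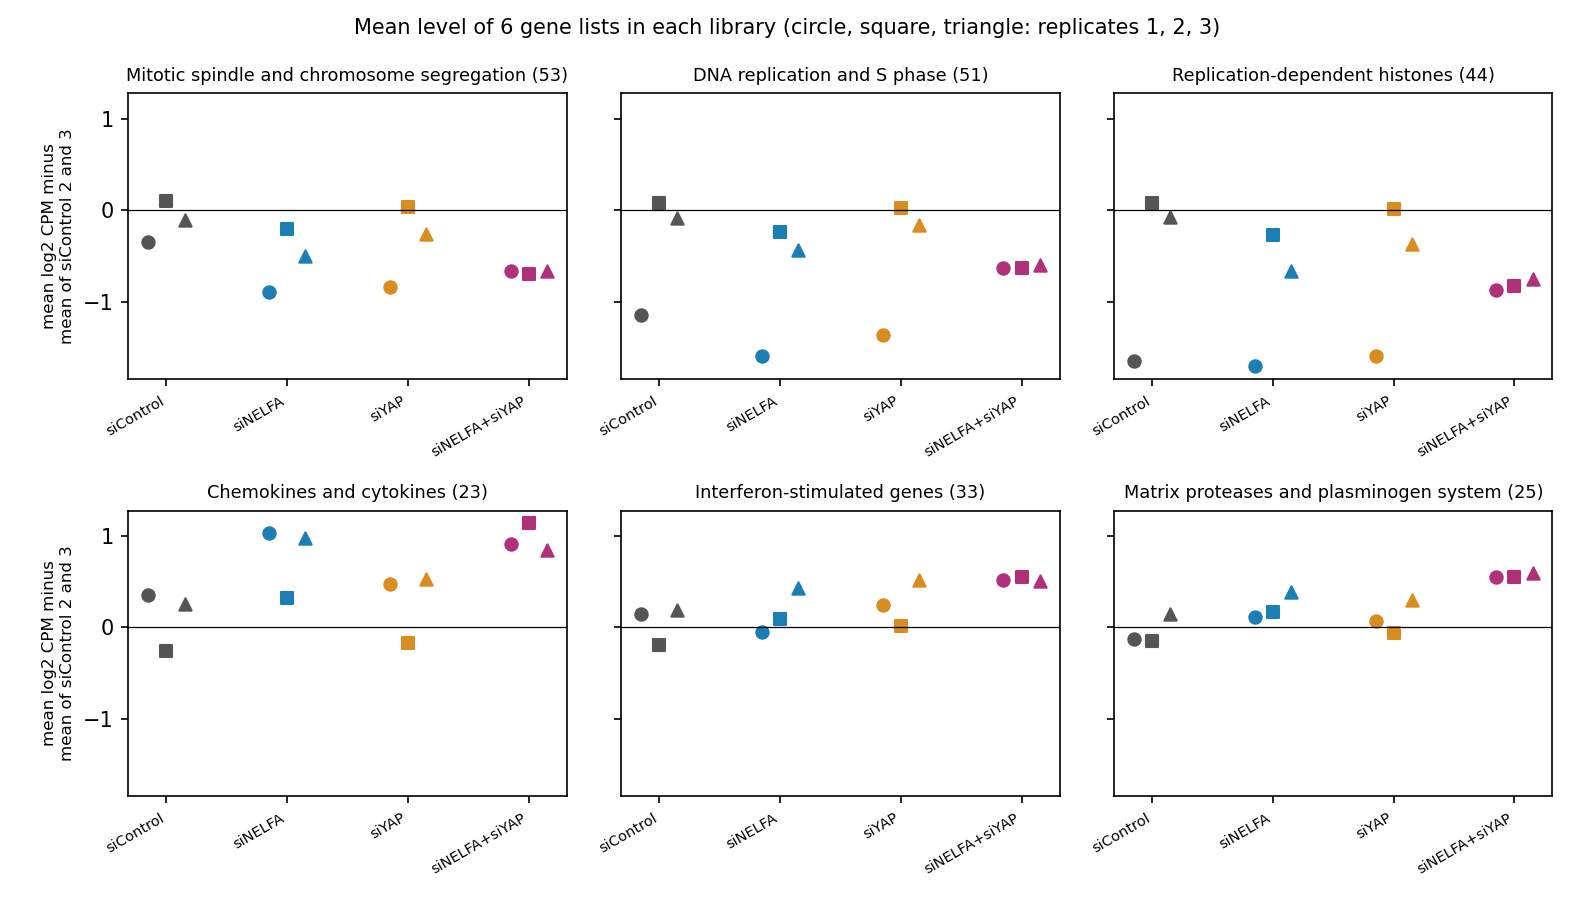
Mean log2 CPM of the members of 6 gene lists in each library, relative to the mean of siControl replicates 2 and 3, by group and replicate. For the mitotic list the double knockdown is below all 3 siControl libraries, and for replication and histone genes siControl replicate 1 is the lowest of the controls at -1.13 and -1.64.

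Chemokine and cytokine genes were mostly higher. Of 23 chemokines and cytokines, 14 were higher and 1 lower against siControl replicates 2 and 3, 11 of the former also above siControl replicate 1, with a median of 1.02. Among all genes tested in that comparison 11.5% were higher and 12.9% lower, and 7.69% were higher and also above siControl replicate 1. Against 3 controls 1, CCL20, passed, where 0.12% of all genes passed as higher, and the median was 0.70. There 11 of 22 had an unadjusted p under 0.05, beside 3241 of 17533 over all genes. CXCL8, the neutrophil chemokine, was at 210, 79.7 and 110 CPM in siControl and at 374, 390 and 371 CPM in the double knockdown. The groups were apart, with a log2 fold change of 1.99 (SE 0.10, adjusted p = 7.8e-09) against replicates 2 and 3 and 1.49 (SE 0.34, adjusted p = 0.0944) against 3. CXCL5 was at 0.650, 0 and 0.569 CPM in siControl and at 6.62, 9.73 and 5.49 CPM in the double knockdown, so it was low in all controls and its fitted fold is not precise. IL6 was at 279, 73.4 and 99.1 CPM in siControl and at 244.5, 260 and 244.1 CPM in the double knockdown. All 3 double knockdown libraries lay above siControl replicates 2 and 3 and below siControl replicate 1, and the log2 fold change was 1.53 without the latter and 0.71 (adjusted p = 0.454) with it. The 1 lower member was IL11 (-0.53), which overlapped siControl replicate 1.

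Of 24 NF-kB subunits and feedback targets, 14 were higher and 2 lower (median 0.37), of 33 interferon-stimulated genes 22 were higher and 0 lower (median 0.47), and of 17 HLA class I and antigen processing genes 12 were higher and 0 lower (median 0.45), all against siControl replicates 2 and 3. Those also above siControl replicate 1 were 9, 14 and 4. Among all tested genes 11.5% passed as higher, and 7.69% passed as higher and also lay above siControl replicate 1. The mean of the HLA list was 0.40 in siControl replicate 1 and 0.41 to 0.45 in the double knockdown, in log2 CPM relative to siControl replicates 2 and 3. For the interferon list it was 0.15, -0.19 and 0.19 in siControl replicates 1 to 3 and 0.50 to 0.55 in the double knockdown. The single knockdown libraries ranged from -0.05 to 0.51 for that list. Of 12 complement and acute-phase genes 9 were higher and 0 lower (median 0.65), 3 of them above siControl replicate 1 too, and the list mean was 1.48 in siControl replicate 1 and 0.57 to 0.67 in the double knockdown. By edgeR 0 of the 12 passed against 3 controls, where 5 had an unadjusted p under 0.05, beside 3241 of 17533 over all genes. TNFAIP2 had 0.89, IFI6 1.02, USP18, an inhibitor of interferon signalling, 1.41, and PSMB10, an immunoproteasome subunit, 0.86, all against siControl replicates 2 and 3. Of the NF-kB, interferon and HLA lists, 1 gene, SDC4 of the NF-kB list, passed against 3 controls, and the medians there were 0.27, 0.32 and 0.28. PTGS2, the inducible cyclooxygenase, was at 7.37, 8.15 and 15.9 CPM in siControl and at 45.8, 32.7 and 38.2 CPM in the double knockdown, with no overlap and a log2 fold change of 1.68 (SE 0.21, adjusted p = 3.7e-05) against replicates 2 and 3. Against 3 controls it was 1.87 (SE 0.31, adjusted p = 0.0623).

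Genes of matrix turnover were mostly higher against siControl replicates 2 and 3, where 11.5% of all genes passed as higher and 12.9% as lower. In that comparison 7.69% of all genes passed as higher and also lay above siControl replicate 1. Of 25 matrix protease and plasminogen genes, 17 were higher and 0 lower, 13 of them also above siControl replicate 1, with a median of 0.43. Not all members are proteases: the 1 that passed against 3 controls was TIMP1, an inhibitor of matrix metalloproteinases. The median against 3 controls was 0.57. PLAUR, the urokinase receptor, was at 85.6, 105 and 143 CPM in siControl and at 258, 267 and 269 CPM in the double knockdown, with no overlap (log2 fold change 1.09, SE 0.09, adjusted p = 1.3e-06 against replicates 2 and 3, and 1.24, SE 0.18, adjusted p = 0.0509 against 3 controls). MMP9 was at 3.90, 37.3 and 42.2 CPM in siControl and at 84.5, 92.7 and 93.7 CPM in the double knockdown. The order of the groups was clear, but siControl replicate 1 was far below the other controls, and the log2 fold change was 1.18 (adjusted p = 3.0e-07) without it and 1.68 (adjusted p = 0.245) with it. Of 19 TGF-beta response genes, 11 were higher and 3 lower, with PMEPA1 at 0.99 and ID3, a BMP-responsive inhibitor of differentiation, at -0.95. The controls differed among themselves, with PMEPA1 at 29.8, 30.9 and 70.0 CPM in siControl and at 96.4, 106 and 98.8 CPM in the double knockdown. In log2 CPM relative to siControl replicates 2 and 3, the list mean was 0.16, -0.25 and 0.25 in siControl replicates 1 to 3. In the double knockdown it was 0.37 to 0.56. Of 26 collagens, 13 were higher and 2 lower, 7 of the former also above siControl replicate 1, and COL12A1 fell by 1.23 on the log2 scale while COL5A1 rose by 1.03. With siControl replicate 1, where COL12A1 was at 921 CPM, its log2 fold change was -2.74 (adjusted p = 0.137). The mean of the collagen list was 0.56 in siControl replicate 1, above 0.28 to 0.40 in the double knockdown. Of 26 p53 targets and CDK inhibitors, 12 were higher and 3 lower, 7 of the former also above siControl replicate 1. The 3 lower members were CDKN2C (-0.64), DDB2 (-0.53), which overlapped siControl replicate 1, and MDM2 (-0.35). Against 3 controls 0 genes of the TGF-beta response, collagen and p53 lists passed by edgeR. Of the 18, 24 and 26 tested there, 11, 9 and 8 had an unadjusted p under 0.05, beside 3241 of 17533 over all genes. CDKN1A, the p21 inhibitor of cyclin-dependent kinases, was at 52.6, 79.6 and 127 CPM in siControl and at 255, 251 and 245 CPM in the double knockdown, and all 3 were above the highest control (log2 fold change 1.27, SE 0.13, adjusted p = 5.6e-06 against replicates 2 and 3). Against 3 controls it was 1.52 (SE 0.29, adjusted p = 0.0735).

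Mediator, RNA polymerase II and cytosolic ribosomal protein genes had medians near 0 against siControl replicates 2 and 3. Of 33 Mediator genes, 3 were higher and 2 lower (median -0.005), of 30 RNA polymerase II subunits and general factors 2 were higher and 3 lower (median 0.02), and of 81 cytosolic ribosomal protein genes 3 were higher and 12 lower (median -0.02), beside 11.5% higher and 12.9% lower among all genes. Of 33 ribosome assembly and nucleolus genes, 13 were lower and 0 higher (median -0.16), and 0 of the 13 lay below siControl replicate 1. The list mean was -0.77 in siControl replicate 1 against -0.18 to -0.14 in the double knockdown. Of 78 mitochondrial ribosomal protein genes, 16 were lower, 6 of them below siControl replicate 1 too, and 4 higher (median -0.10). Of 28 nuclear pore genes, 18 were lower and 0 higher (median -0.27), with NUP205 at -0.63 and NDC1, which overlapped siControl replicate 1, at -0.63. Only 6 of the 18 lay below siControl replicate 1, where the list mean was -0.45 against -0.29 to -0.24 in the double knockdown. Of 59 lysosome and V-ATPase genes, 30 were higher and 5 lower (median 0.25), with CTSS at 0.96 and CTSL at 0.94, both cathepsins. Of the 30, 16 lay above siControl replicate 1, where the list mean was 0.28 against 0.21 to 0.24 in the double knockdown. Against 3 controls 0 genes of the nuclear pore and lysosome lists passed by edgeR (medians -0.11 and 0.14). There 7 of 28 and 17 of 59 had an unadjusted p under 0.05, beside 3241 of 17533 over all genes. For the Mediator, RNA polymerase II and cytosolic ribosomal protein lists 0 passed there as well. An unadjusted p under 0.05 was held by 2 of 33, 3 of 30 and 6 of 81, below the share over all genes. The ribosome assembly and mitochondrial ribosomal protein lists also had 0 passing, with 0 of 33 and 13 of 78 at an unadjusted p under 0.05.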

How the data were processed

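Ribosomal RNA-depleted, stranded total RNA libraries of MDA-MB-231 cells were sequenced by the authors, with STAR alignment (GRCh38, Ensembl annotation) and featureCounts. The deposited raw counts per gene were not normalized, and the strand setting of the counting is not given in the sources used here. TPM values, scaled per library by the authors, were used in an alternative, and deposited FPKM values were not used. The submitters' processing notes also name FastQC, cutadapt, Cufflinks and DESeq2.

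The 6 libraries, and then the 5 without siControl replicate 1, were fitted by edgeR 4.0.16 in R 4.3.3 (quasi-likelihood test, TMM factors, unpaired). Genes were kept by filterByExpr (minimum count 10, total 15, proportion 70%), with Benjamini-Hochberg adjustment across every gene tested. SE is the size of the log2 fold change divided by the square root of F. CPM values use TMM factors over 12 libraries. The tests were checked on simulated counts in which both groups had the same spread per gene and no library stood apart. That check does not cover the outlying siControl replicate 1. The members and the gene lists were chosen with earlier results of these data known. Named genes are both targets, their complex and pathway partners, the 10 that rose and the 10 that fell most per comparison (adjusted p under 0.05, mean of at least 50 counts, groups apart) up to 4 members of a list in each direction, and cell type markers. In the second comparison the 3 double knockdown libraries also had to lie beyond siControl replicate 1. Promoters are from RefSeq, and gene positions from GENCODE on GRCh38, matched by identifier. The promoter stretches and motifs, and the names ARHGAP29, ANLN and MALAT1, were chosen after values were seen. As alternatives served DESeq2 1.42.0, edgeR with RLE factors, a looser and a stricter filter, the replicate number as a block, limma 3.58.1 on log2(TPM + 1), fits over 12 libraries and leaving out each library. Figures used matplotlib 3.10.9 under Python 3.11.15. Results that name withheld items are not reported here.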

Additional observations from a re-analysis of the deposited data

How the results depend on the processing

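Against 3 controls (75 genes), the count was 1348 with DESeq2, 381 with no filter beyond 1 count, 117 with genes averaging at least 50 counts, 11 with limma on log2(TPM + 1), and 0 to 4531 when single libraries were left out. It was 0 without siNELFA+siYAP replicate 1 by edgeR, where 1878 genes had an unadjusted p under 0.05. With a term for the replicate 1 libraries it was 2765 when the double knockdown was placed with replicates 2 and 3, and 7572 when it was placed with replicate 1. Against siControl replicates 2 and 3 (4531 genes), it was 9 with limma on log2(TPM + 1), and 3213 to 5517 when single libraries were left out.

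Of the genes tested, 276 (6 libraries) and 424 (5 libraries) were listed at 0 TPM in every library. With genes averaging at least 1 TPM only, an alternative chosen after seeing the data, limma passed 19 and 1070 genes, and the median log2 difference over all genes was -0.131 and -0.116. The replicate numbers did not pair the samples: deviations of same-numbered libraries from their group means correlated by -0.0174 to 0.0102 across genes. With the replicate number as a block, 2 genes passed against 3 controls and 3282 against replicates 2 and 3.

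With the double knockdown placed with replicate 1, medians reversed for replication genes (0.52), histones (0.64), Fanconi genes (0.13), acute-phase genes (-0.31) and HLA genes (-0.020). Acute-phase genes ranged from -0.016 (without siControl replicate 3) to 0.65 (without siControl replicate 1), and laminins reversed on genes averaging at least 1 TPM (-0.026). On log2(TPM + 1), at either filter, EPHA4 (-0.40), ELL2 (-0.032), AGO3 (-0.00196), ELF3 (-0.00811), ZNF425 (-0.014) and SNORD3B-2 (-0.11) reversed. Y_RNA had a difference of 0 with all genes. The causes were not tested. The lowest depth was 9608145 counts, in siControl replicate 1.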

Other observations

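Further lists were counted against siControl replicates 2 and 3, where 11.5% of all genes were higher and 12.9% lower. Of 30 autophagy genes 13 were higher and 3 lower (median 0.24), with GABARAPL1 at 0.72 and ULK1, the initiating kinase, at 0.72. Of 33 vesicle coat and Golgi traffic genes 16 were higher and 1 lower (median 0.19), with COPG1 at 0.59 and SEC24A at 0.58. In the spliceosome 16 of 40 genes were lower and 0 higher, with SF3B2 at -0.59. Against 3 controls 0 members of the autophagy, vesicle and spliceosome lists passed by edgeR. There 9 of 30, 5 of 33 and 4 of 40 had an unadjusted p under 0.05, beside 3241 of 17533 over all genes. GABARAPL1 and SEC24A overlapped siControl replicate 1. Relative to siControl replicates 2 and 3, the mean log2 CPM in siControl replicate 1 was 0.29, 0.18 and -0.49 for these lists, farther from 0 than in the double knockdown (0.19 to 0.21, 0.16 to 0.17 and -0.17 to -0.14).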
